A study of Sus scrofa with 8 samples.

Results

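The respiratory chain and the ATP synthase of mitochondria are described here in the back muscle of 2 pig breeds, as 64 genes of the 6765 that had exactly 1 symbol on the array. Members were chosen by symbol alone: NDUFA, NDUFB, NDUFC, NDUFS and NDUFV genes, succinate dehydrogenase genes, UQCR, COX5 to COX8 and ATP5 genes, and CYCS. The rule also allowed COX4I genes and CYC1, but none was found under these symbols. By symbol they fell into 36 genes of complex I, 4 of complex II, 2 of complex III, 7 of complex IV, 14 of the ATP synthase and cytochrome c. Where several probe sets measured a gene the brightest stood for it, and all 64 were bright enough to be tested. The prefixes also took in the assembly factors NDUFAF1, NDUFAF2 and NDUFAF3, the coupling factor gene ATP5S, and NDUFA4, whose product is now placed in complex IV.

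Total RNA of the longissimus dorsi, taken from the back between the seventh and ninth ribs, was hybridised to 8 Affymetrix arrays. The groups were 4 arrays of Korean native pigs (KNP) aged 7 months and 4 of Yorkshire pigs aged 6 months, raised alike according to the labels and given no treatment that the labels name. The arrays of a breed are labelled as biological replicates, without saying whether each holds RNA of a single animal. Breed and age cannot be told apart, and the labels used here give no sex. The study asked which muscle genes are expressed differently between these breeds.

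Electrons from NADH enter the chain at complex I and those from succinate at complex II. Ubiquinone carries them to complex III, cytochrome c carries them on to complex IV, and oxygen takes them up there. Complexes I, III and IV pump protons out of the matrix, and the ATP synthase lets them flow back to make ATP. Slow and oxidative muscle fibres are rich in these complexes, while the longissimus of the pig is mostly a fast muscle.

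Muscle fibre genes were the brightest of the cell type markers, which fits the tissue label: the summed signal of 8 fibre genes was 382383 to 574718 in KNP and 498027 to 754186 in Yorkshire. The 4 leukocyte markers summed to 1074 to 4474 and 1189 to 2241. Array medians ranged from 136 to 185 units, and the deposited arrays share 1 overall brightness, with trimmed means of 500.1 to 500.2. The spiked hybridisation controls were bright on replicates 1 and 3 of both breeds (13.42 to 13.70 log2 units) and dim on replicates 2 and 4 (12.50 to 12.81), and their breed means did not differ (exact permutation test, two-sided p = 0.714; the smallest possible is 0.0286). The 3' to 5' ratio of housekeeping transcripts, a sign of RNA and labelling quality, was highest on KNP 1 (3.33 log2 units) and Yorkshire 3 (3.03) and lay between 0.87 and 1.73 on the others.

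No member differed between breeds past the threshold. By limma 0 of 64 members had an adjusted p under 0.05, against 0% of the 5331 genes tested, and the smallest adjusted p among them was 0.999. At an unadjusted p under 0.05 there were 0 members, against 3.43% of all genes (1.74% higher and 1.69% lower in KNP). That count was 3 without KNP 2, 1 without Yorkshire 1 or without Yorkshire 4, 2 in the arrays of bright hybridisation controls alone, and 1 with all probe sets of a gene averaged. The share of all genes was not taken at these settings, so no excess or lack of members is read from these counts. In 0 of 64 were the 4 values of one breed all above those of the other, against 2.25% of all genes. The differences were small: log2 changes, KNP minus Yorkshire on the log2(signal + 32) scale, ran from -0.45 for SDHC to 0.55 for NDUFAF2.

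The data bound most of these differences closely. In 60 of 64 members the 95% interval of the log2 change lay within 1 unit of 0, that is within a 2-fold difference, against 75.6% of all genes. The exceptions were ATP5I (-1.62 to 1.81), SDHC (-1.28 to 0.38), NDUFAF2 (-0.18 to 1.28) and NDUFV3 (-0.75 to 1.03). The median interval reached 0.42 to each side. The SD within a breed had a median of 0.25 log2 units among members and 0.36 among all genes, but members were also brighter, with a median log2 signal of 13.11 against 9.22. Among the 490 other genes of mean log2 signal 12 or more, a limit chosen after the values were seen, the interval lay within 1 unit in 91.6% and the SD had a median of 0.27. Among the 47 members as bright as that, it lay within 1 unit in all 47 and the SD had a median of 0.23.

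**Figure D1:**
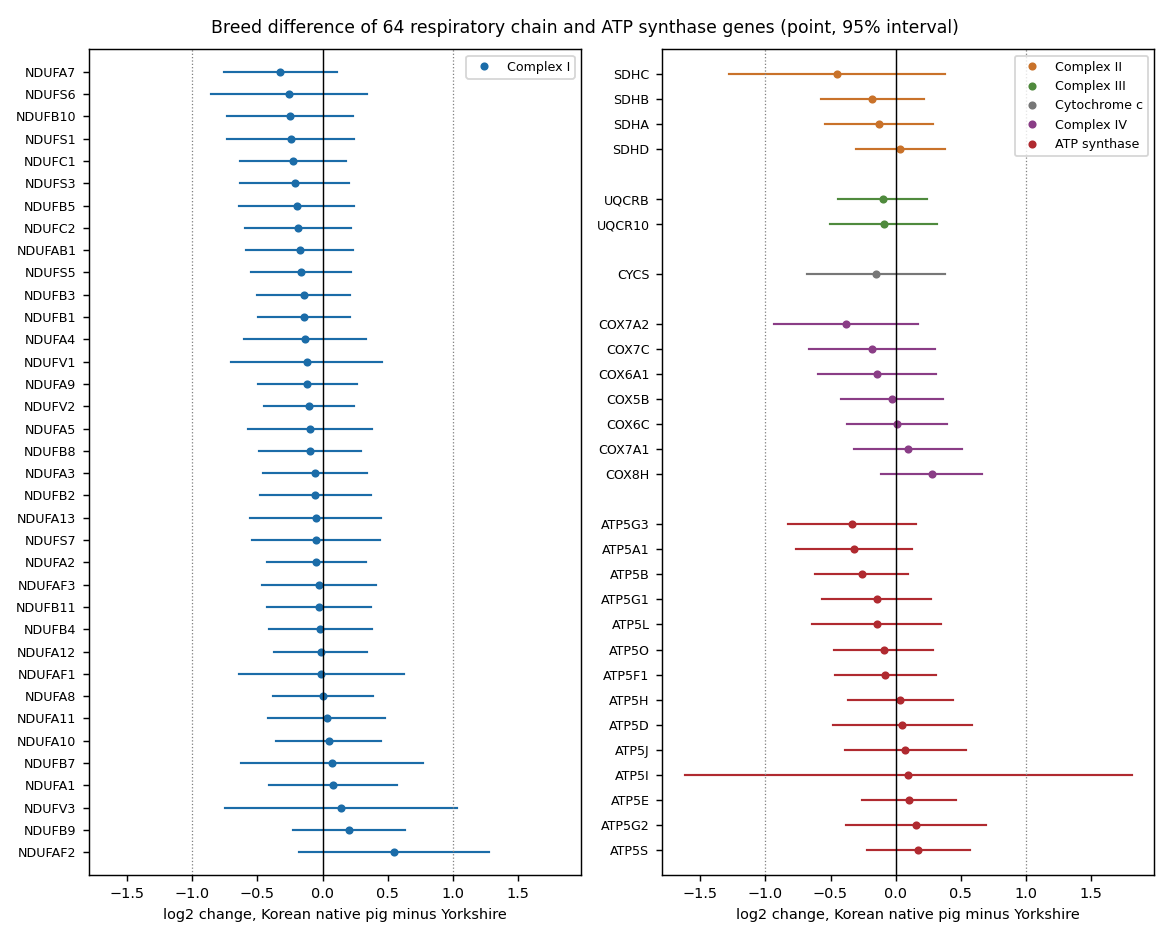
Log2 change (KNP minus Yorkshire, horizontal axis) of each of the 64 genes, with complex I on the left and the other complexes on the right. Points are limma estimates and bars 95% intervals over 4 arrays per breed; dotted lines mark 1 log2 unit. Every bar crosses 0, and 60 of 64 lie between the dotted lines.

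The signs were uneven without any gene passing. Of the 64 members 45 had a log2 change below 0, or 70.3%, against 50.4% of all genes, and the median was -0.09 against 0.00 (-0.00269). The count was 28 of 36 in complex I (median -0.08), 3 of 4 in complex II (-0.16), 2 of 2 in complex III (-0.10), 4 of 7 in complex IV (-0.03) and 7 of 14 in the ATP synthase (-0.02). Genes of one complex may not vary independently across arrays, which was not examined. These counts are thus descriptions and were not tested. Without the assembly factors, ATP5S and NDUFA4 the median was -0.10 for complex I and -0.08 for the ATP synthase. Of the 47 bright members 74.5% were below 0, against 52.7% of the 490 other bright genes.

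The signs were also counted within the arrays of bright and of dim hybridisation controls. Within the bright arrays, 2 per breed, 32 of 64 members were below 0 with a median of 0.00 (-0.000975), against 47.5% of all genes. Within the dim arrays 53 of 64 were below 0 with a median of -0.15, against 54.8% of all genes. Among the 47 members of mean log2 signal 12 or more, 53.2% were below 0 in the bright and 85.1% in the dim arrays. Among the 490 other genes of such signal it was 45.7% and 62%. The medians in the bright and the dim arrays were 0.01 and -0.15 for complex I, -0.06 and -0.21 for complex II, -0.02 and -0.18 for complex III, 0.00 (-0.00342) and -0.04 for complex IV, and 0.06 and -0.19 for the ATP synthase. Whether the differences depend on the class of arrays was not tested as an interaction. With the class as a term beside breed, 0 of 64 members differed between bright and dim arrays at a limma adjusted p under 0.05, against 0% of all genes. At an unadjusted p under 0.05 there were 6, or 9.38%, against 9.68%.

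The lower values in KNP lay to a large part on KNP 4. For each member the array of lowest signal was KNP 4 in 21 of 64 genes, or 32.8%, while no array was the lowest in more than 15.7% of all genes, and KNP 4 was the highest in 0 members. The summed signal of the leukocyte markers was highest on KNP 4 (4474), and their part in the members' values was not tested. Yorkshire 1 was the lowest in 13 members and KNP 3 in 11, while Yorkshire 3 was the highest in 16, Yorkshire 2 in 12, and KNP 2 and Yorkshire 4 in 11 each. These highest arrays, in that order, held 25%, 18.8%, 17.2% and 17.2% of members, against 16.9%, 9.72%, 10.2% and 19.6% of all genes. After each gene's mean over the 8 arrays was taken off, the median over members was 0.03, 0.13, -0.06 and -0.21 in KNP 1 to 4. In Yorkshire 1 to 4 it was -0.14, 0.15, 0.10 and 0.08. The ranges of the breeds overlap, with KNP 2 near the top and Yorkshire 1 near the bottom. Without KNP 4 the median log2 change of the members was -0.01 with 36 of 64 below 0, and without Yorkshire 1 it was -0.16 with 52 of 64 below 0.

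**Figure D2:**
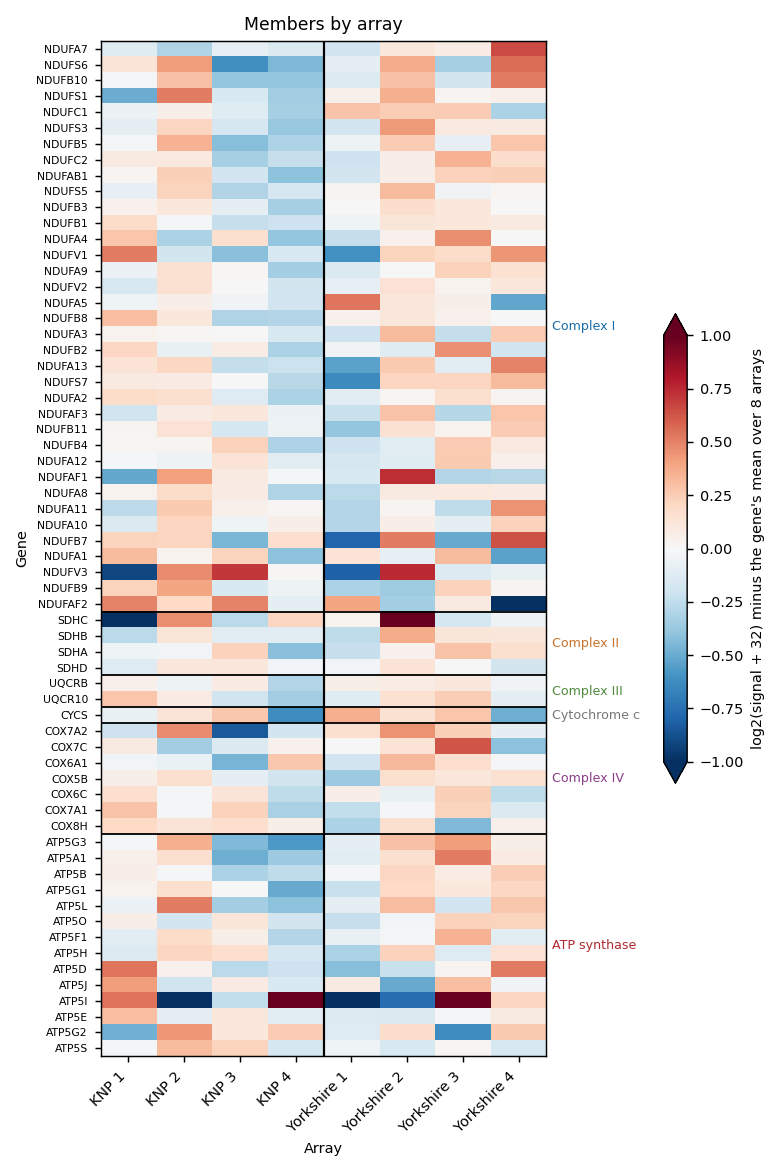
Log2(signal + 32) of each member minus its mean over the 8 arrays (colour, cut at 1 unit to each side), with arrays in columns, KNP on the left, and genes in rows by complex and log2 change. KNP 4 and Yorkshire 1 are blue over much of complex I and the ATP synthase, and ATP5I reaches the ends of the scale in both breeds.

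The fibre genes give a point of reference for these arrays. The median deviation of 8 slow fibre genes was 0.28, -0.50, 0.31 and -0.60 in KNP 1 to 4 and -0.25, -0.04, 0.56 and 0.17 in Yorkshire 1 to 4. KNP 4 and Yorkshire 1 were thus low in slow fibre genes as well as in members, but KNP 2 was low in slow fibre genes and high in members. For the fast fibre genes the median deviation was 0.11, -0.24, -0.22 and -0.36 in KNP 1 to 4. In Yorkshire 1 to 4 it was 0.02, -0.08, -0.01 and 0.67. KNP 4 was thus the lowest array in fast as well as slow fibre genes, while Yorkshire 1 was low in the slow ones alone. The log2 change was below 0 in 7 of 8 slow fibre genes (median -0.23; summed signal 212176 to 420238 in KNP and 289812 to 496720 in Yorkshire). It was below 0 in 7 of 7 fast fibre genes (median -0.32; 340893 to 498887 and 461718 to 736533), and 0 of these genes passed. The part of fibre makeup in the members' values was not tested. In a piece of muscle, fewer fibres of a type and less RNA per fibre cannot be told apart.

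**Figure D3:**
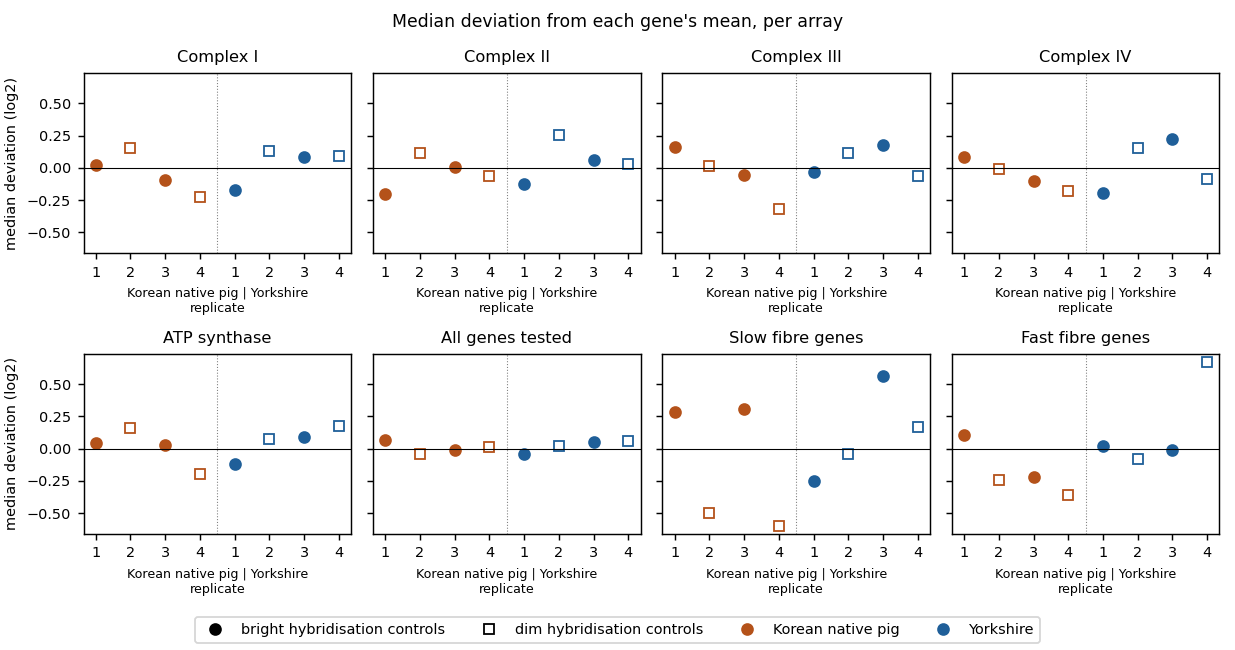
Median deviation (log2 units, vertical axis) from each gene's own mean, per array, for each complex, all genes tested, and slow and fast fibre genes. Each point is 1 array, filled circles have bright and open squares dim hybridisation controls; the complexes stay within 0.32 of 0, and the breeds overlap in every panel.

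Complex I passes electrons from NADH to ubiquinone through a flavin and a row of iron-sulphur clusters held by its core subunits. All 5 core subunits measured had a log2 change below 0: NDUFS1 -0.24, NDUFS3 -0.21, NDUFV1 -0.12, NDUFV2 -0.10 and NDUFS7 -0.05 (median -0.12, or -0.06 in the bright and -0.34 in the dim arrays). Without each array in turn the median of these 5 ranged from -0.27 to -0.07. NDUFS1, the largest subunit, had signals of 3329.6, 6737, 4244 and 3689.5 in KNP and 4882, 6036, 4818 and 4887 in Yorkshire. KNP 2 was the highest array of all and the other 3 KNP arrays were the lowest. The core subunits were singled out after their values were seen.

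Accessory subunits surround that core and steady it. Of 27 such genes 20 were below 0, with a median of -0.06 and a range from -0.32 to 0.20. NDUFA7, an accessory subunit, had signals of 2719, 2389, 2783 and 2675 in KNP and 2586, 3194, 3109.7 and 4655 in Yorkshire. The KNP arrays lay close together, and Yorkshire 4 stood above all others. Its log2 change was -0.32 (SE 0.20, 95% interval -0.76 to 0.11; limma adjusted p = 0.999), or -0.04 in the bright and -0.60 in the dim arrays, and it was -0.16 without Yorkshire 4.

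NDUFC1, a small membrane subunit, was at 9554, 10349, 9144 and 7919 in KNP and 12121, 11800.1, 11871 and 7979 in Yorkshire. Yorkshire 1, 2 and 3 lay above all KNP arrays and Yorkshire 4 near the lowest of them, which left a change of -0.23 (SE 0.19, interval -0.64 to 0.18), or -0.37 without that array. NDUFB10, which sits in the membrane arm, was at 9005, 11179, 6973 and 6984 against 8313, 11218, 8027 and 13099. The breeds overlapped widely, and the change was -0.25 (SE 0.22, interval -0.73 to 0.23), with -0.04 in the bright and -0.45 in the dim arrays, -0.39 without KNP 2 and -0.12 without Yorkshire 4.

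The other accessory genes below 0 were NDUFS6 (-0.26), NDUFB5 (-0.20), NDUFC2 (-0.19), NDUFS5 and NDUFAB1 (both -0.17), and NDUFB3 and NDUFB1 (both -0.14). NDUFAB1 is the acyl carrier protein of mitochondria as well as a subunit of the complex. Closer to 0 were NDUFA9 (-0.12), NDUFA5 and NDUFB8 (both -0.10), NDUFA3 and NDUFB2 (both -0.06), NDUFA13 and NDUFA2 (both -0.05), NDUFB11 (-0.03), and NDUFB4 and NDUFA12 (both -0.02). Those above 0 were NDUFA8 (0.00193), NDUFA11 (0.03), NDUFA10 (0.05), NDUFB7 (0.07), NDUFA1 (0.08), NDUFV3 (0.14) and NDUFB9 (0.20). None of them had a limma adjusted p under 0.999.

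Of the assembly factors, which help to build complex I but do not stay in it, NDUFAF2 had the largest change of any member. Its signals were 472, 379, 474 and 304 in KNP and 439.5, 252, 349 and 119 in Yorkshire. Yorkshire 4 was the lowest array and the rest overlapped. The log2 change was 0.55 (SE 0.33, interval -0.18 to 1.28; limma adjusted p = 0.999), or 0.25 in the bright and 0.85 in the dim arrays. It was 0.23 without Yorkshire 4 and 0.37 with its probe sets averaged, and the probe set was among the dimmest of the members. NDUFAF1 was at -0.01, with -0.45 (SE 0.29) at a second probe set, and NDUFAF3 was at -0.03. NDUFA4 was at -0.13, with 0.10 in the bright and -0.37 in the dim arrays.

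Complex II, succinate dehydrogenase, also belongs to the citrate cycle, and all 4 of its genes were measured. SDHA, the flavoprotein that oxidises succinate, had signals of 8411, 8535, 10187 and 6484 in KNP and 7409, 8932, 10619 and 9738 in Yorkshire. SDHB, the iron-sulphur subunit, was at 14125, 18582, 15899 and 15904 against 14291, 22152, 18607 and 18504. KNP 1 and Yorkshire 1 were its lowest arrays and nearly level. The log2 changes were -0.13 (SE 0.19, interval -0.55 to 0.28) for SDHA and -0.18 (SE 0.18, interval -0.57 to 0.22) for SDHB.

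The membrane anchors SDHC and SDHD went apart in spread. SDHC was at 739, 2603, 1545 and 2181 in KNP and 1921, 4017, 1653 and 1812 in Yorkshire. KNP 1 was far below and Yorkshire 2 far above the other arrays. Its change of -0.45 (SE 0.38, interval -1.28 to 0.38; limma adjusted p = 0.999) was the lowest of any member, and it was -0.09 without KNP 1, -0.68 without KNP 2 and -0.16 without Yorkshire 2. SDHD was at 8598, 10212, 10226 and 9249.9 against 9241, 10384, 9420.1 and 8318. These values were among the steadiest of all members, with a within-breed SD of 0.13 log2 units and a change of 0.04 (SE 0.16, interval -0.31 to 0.38).

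Of complex III, which hands electrons from ubiquinone to cytochrome c, UQCRB and UQCR10 were measured with 1 symbol. Both encode small subunits without a redox centre, so the catalytic subunits were not analysed here. UQCRB was at 22914, 21387, 23419.6 and 18048 in KNP and 23016, 23265, 23791 and 21539 in Yorkshire. KNP 4 was the low array and the other 7 lay close together. UQCR10 was at 12401, 10812, 8902 and 8040.1 against 9375, 11369.5, 12143 and 9612. The changes were -0.10 (SE 0.16, interval -0.45 to 0.24) and -0.09 (SE 0.19, interval -0.50 to 0.31).

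Cytochrome c, the carrier encoded by CYCS, had signals of 10381, 11921, 13163 and 7074 in KNP and 14028, 12170.4, 13222 and 7774 in Yorkshire. Replicate 4 was the low array in both breeds. The change was -0.15 (SE 0.24, interval -0.68 to 0.38), and it was 0.03 without KNP 4 and -0.34 without Yorkshire 4.

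Complex IV, cytochrome c oxidase, has its catalytic centre in subunits encoded by mitochondrial DNA. The 7 genes here encode only some of its nuclear subunits, without COX4I genes, COX5A, COX6A2 or COX6B1. For some nuclear subunits, mammals have a form found in heart and skeletal muscle and another found in most tissues. COX8H, named as the heart form of subunit VIII, was at 20776, 19839, 20431 and 18873 in KNP and 14529, 20240.1, 13375 and 18742 in Yorkshire. The KNP arrays lay close together at the level of Yorkshire 2 and 4, and Yorkshire 1 and 3 were lower. Its change of 0.28 (SE 0.18, interval -0.11 to 0.66; limma adjusted p = 0.999) was 0.56 in the bright and -0.01 in the dim arrays, and 0.18 without Yorkshire 3.

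COX7A1 encodes the muscle form of subunit VIIa and COX7A2 the form of most tissues. COX7A1 was at 23909, 19482, 23065 and 15694 in KNP and 16503, 19366, 22895 and 17707 in Yorkshire, a change of 0.09 (SE 0.19, interval -0.32 to 0.51). COX7A2 was at 2518, 4034, 1613 and 2543 against 3255, 3972, 3439.5 and 2734, a change of -0.38 (SE 0.25, interval -0.94 to 0.17; limma adjusted p = 0.999). KNP 3 was the lowest array for COX7A2 and among the higher for COX7A1. The change of COX7A2 was -0.17 without KNP 3 and -0.60 without KNP 2, and -0.72 in the bright and -0.04 in the dim arrays. The log2 ratio of COX7A1 to COX7A2 was 2.98 ± 0.68 in KNP and 2.50 ± 0.23 in Yorkshire (SD, n = 4). The difference gave p = 0.343 in a two-sided exact permutation test, and an adjusted p = 0.343 over 4 isoform pairs. A ratio between probe sets has no meaning as a level, so only its difference between breeds is read, and that was 0.99 in the bright and -0.04 in the dim arrays.

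The other nuclear subunits of complex IV that were measured had changes from -0.18 to 0.01. COX6C was at 32801, 28865, 32085 and 24579 in KNP and 30691, 27859, 34454 and 24497 in Yorkshire, with replicate 4 lowest in both breeds and a change of 0.01 (SE 0.18, interval -0.37 to 0.40). COX5B was at 14759, 15833, 13206 and 12468 against 10972, 15774, 15286 and 15759.7, a change of -0.03 (SE 0.18, interval -0.42 to 0.36). Yorkshire 1 was the lowest array of COX5B. COX7C was at 24754, 18319.7, 21123 and 24019.5 against 23319, 25678, 36062 and 17517, with Yorkshire 3 far above the rest, and its change of -0.18 (SE 0.22, interval -0.66 to 0.30) was 0.00 (0.000721) without that array. COX6A1, the form of most tissues of subunit VIa, was at 1134, 1102, 831 and 1406 against 1010.2, 1457, 1304 and 1149. The breeds overlapped, and the change was -0.14 (SE 0.21, interval -0.60 to 0.31).

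**Figure D4:**
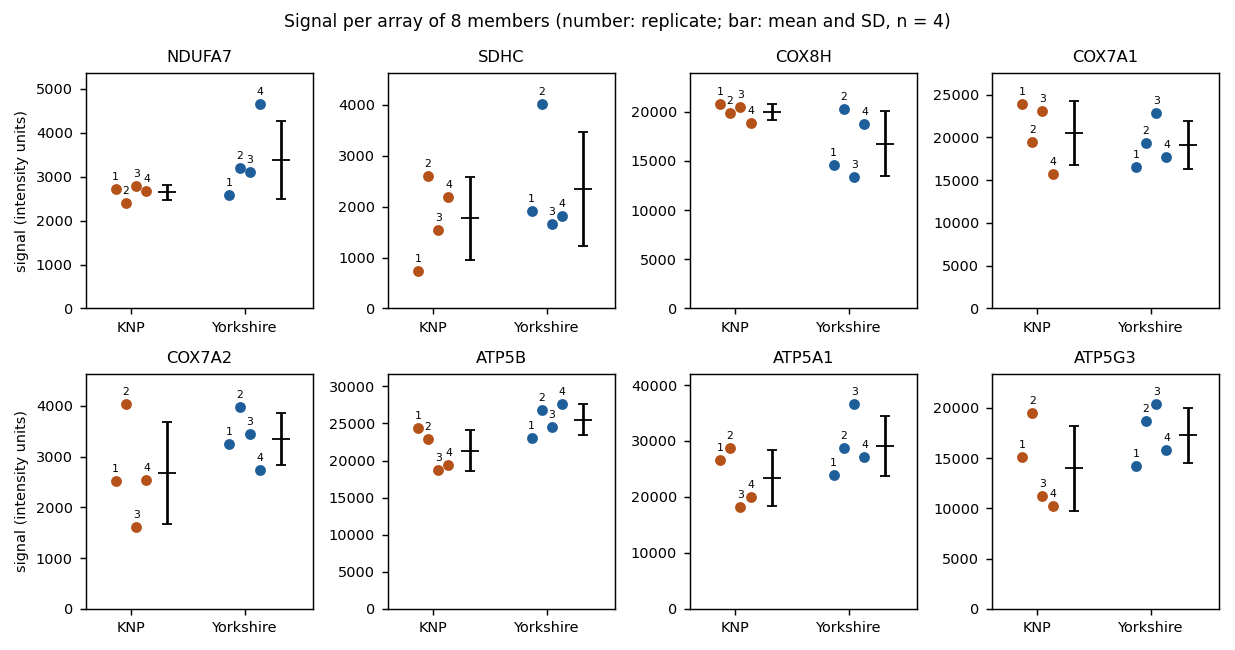
Signal (intensity units, from 0) of 8 members on each array, with replicate numbers beside the points and bars for the mean and SD of 4 arrays. The breeds overlap in every panel: in COX8H only KNP 1 and 3 lie above all Yorkshire arrays, and in ATP5B KNP 1 lies above Yorkshire 1.

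The ATP synthase joins a catalytic head, F1, to a ring of c subunits that proton flow turns. ATP5B encodes the catalytic beta subunit of the head and ATP5A1 the alpha subunit beside it. ATP5B was at 24353, 22891, 18665 and 19444 in KNP and 23042, 26788, 24460.2 and 27593 in Yorkshire, or 21338 ± 2722 against 25471 ± 2094 (SD, n = 4). KNP 3 and 4 were the low arrays and KNP 1 lay above Yorkshire 1. The change was -0.26 (SE 0.16, interval -0.62 to 0.10; limma adjusted p = 0.999), with -0.15 in the bright and -0.37 in the dim arrays, and it lay between -0.33 and -0.20 when any 1 array was left out.

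ATP5A1 was at 26607, 28733, 18242 and 19924 in KNP and 23871, 28665, 36569.6 and 27103 in Yorkshire. The same KNP arrays were low and Yorkshire 3 was the highest. The change was -0.32 (SE 0.20, interval -0.77 to 0.13), with -0.42 in the bright and -0.22 in the dim arrays, -0.21 without KNP 3 and -0.21 without Yorkshire 3. The other genes of the head and its rotor were ATP5E at 0.10 and ATP5D at 0.05, so the 4 genes of this group were split evenly about 0.

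The c ring subunit is encoded by 3 genes that make the same mature protein with different import signals. ATP5G3 was at 15077, 19483, 11214 and 10221 in KNP and 14210.5, 18659, 20369 and 15844 in Yorkshire, a change of -0.34 (SE 0.22, interval -0.82 to 0.15) that was -0.51 without KNP 2 and -0.20 without KNP 4. KNP 3 and 4 were again the low arrays. ATP5G1 was at 16194, 17668, 15866 and 11147 against 13554, 18125, 17028 and 18221, a change of -0.15 (SE 0.19, interval -0.56 to 0.27). ATP5G2 was at 4815, 9104, 7245 and 8038 against 6141, 7622, 4376 and 8065, a change of 0.16 (SE 0.25, interval -0.38 to 0.69). The difference between breeds in the log2 ratio was 0.49 for ATP5G2 over ATP5G3, -0.30 for ATP5G1 over ATP5G2 and 0.19 for ATP5G1 over ATP5G3 (exact permutation tests, two-sided p = 0.286, 0.314 and 0.314, each with adjusted p = 0.343).

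Of the stalk that holds the head still, ATP5O was at -0.09, ATP5F1 at -0.08, ATP5H at 0.04 and ATP5J at 0.07. ATP5L, a membrane subunit, was at -0.15. ATP5S, which encodes a coupling factor that is no fixed part of the enzyme, was at 1107, 1398, 1314 and 987 in KNP and 1086, 1002, 1126 and 998 in Yorkshire. KNP 2 and 3 were the high arrays, and the change was 0.17 (SE 0.18, interval -0.22 to 0.57), with 0.52 (SE 0.21) at a second probe set. That probe set had an unadjusted limma p of 0.0265 in the fit without the dim filter. The count of members at an unadjusted p under 0.05 rests on the brightest probe set of each gene.

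ATP5I, a small membrane subunit, varied more than any other member, and it is named after its values were seen. Its signals were 1755, 392, 1003 and 3266 in KNP and 295, 693, 5837 and 1389 in Yorkshire. Both breeds held high and low arrays, so a change of 0.10 came with an SE of 0.79 and a within-breed SD of 1.53 log2 units, against a median of 0.25 among members. A second ATP5I probe set was too dim to test, at 17.5 to 32.3.

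Several probe sets covered 14 members, and 9 of these had more than 1 bright enough to test. In 5 of the 9 the signs of the changes differed between probe sets. SDHB had 0.08 at its second probe set, NDUFB3 0.12, and NDUFS3 -0.11 and 0.02. NDUFV2 had 0.06 and -0.02 at its further probe sets, and ATP5L had -0.26 and 0.31. In these genes the sign of the change given above was thus not shared by all probe sets.

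The chain also needs genes outside the 64. None of the symbols of the subunits encoded by mitochondrial DNA was among the named probe sets. Of 42 assembly factors listed, 15 were tested, 3 of them members by symbol: 5 were below 0 and 10 above, with a median of 0.09. TMEM126B, a complex I assembly factor, was at 1634, 1611, 1770.3 and 1465 in KNP and 2005, 2528, 1739 and 1894 in Yorkshire, a change of -0.32 (SE 0.18, interval -0.71 to 0.07). KNP 3 lay just above Yorkshire 3. SCO2, a copper chaperone of complex IV, had the highest change, 0.63 (SE 0.45). Its signals were 228, 107, 170 and 154 in KNP and 14.5, 156, 141 and 123 in Yorkshire. Yorkshire 1 was far below the rest, and the change was 1.35 in the bright and -0.09 in the dim arrays.

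Of 18 regulators of mitochondrial biogenesis and of mitochondrial DNA, 6 were tested, 5 of them below 0, and 0 passed. PPARGC1A, a coactivator of mitochondrial genes, was at 510.2, 745, 685 and 694 in KNP and 818, 1428, 3478 and 683 in Yorkshire. Yorkshire 3 was far above the rest and Yorkshire 4 lay among the KNP arrays, with a change of -0.96 (SE 0.41, interval -1.85 to -0.06; limma adjusted p = 0.999). TFAM, which packs mitochondrial DNA and helps to start its transcription, was at 1257, 1322, 1120.3 and 1162 against 1265, 1207, 1301 and 1091. Its change was 0.00 (-0.00029, SE 0.17). SSBP1, which binds single-stranded mitochondrial DNA, was at -0.24 (SE 0.19).

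Of 27 genes of electron entry, ubiquinone synthesis and ATP export, 18 were tested: 10 were below 0 and 8 above, with a median of -0.04, and 0 passed. COQ6, an enzyme of ubiquinone synthesis, was at 864, 901, 886 and 885 in KNP and 978, 952, 1388 and 966 in Yorkshire. All KNP values lay below all Yorkshire values, as in 2.25% of all genes in one direction or the other, and the change was -0.25 (SE 0.19; limma adjusted p = 0.999). SLC25A3, which brings phosphate to the ATP synthase, was at -0.22 (SE 0.16), and SLC25A4, which exports ATP from the matrix, at -0.04 (SE 0.22).

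Markers of other cells in the muscle piece overlapped between the breeds. Of 5 adipocyte genes 4 were below 0 (median -0.52; summed signal 5304 to 11425 in KNP and 6806 to 13412 in Yorkshire). All 5 connective tissue genes were below 0 (median -0.19; 9563 to 17653 and 12256 to 20741). Of 4 endothelial genes tested 1 was below 0 (median 0.03), and with a further dim gene all 5 summed to 3317 to 4422 and 3442 to 5330.3. The 3 red cell genes had a median of 0.07 (928 to 1209 and 984 to 1163). The 2 leukocyte genes tested had a median of 0.09, and 2 of 4 heart genes were too dim to test, while the others had a median of -0.59. All 4 heart genes together summed to 252 to 465 in KNP and 452 to 714 in Yorkshire. No gene of these lists passed, and the part of such cells in the members' values was not tested.

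The order of the complexes by median was not stable. Without KNP 4 the medians were -0.02 for complex I, -0.09 for complex II, -0.01 for complex III and 0.03 for complex IV, and without Yorkshire 4 that of the ATP synthase was 0.02. Those of complexes IV and V also changed sign with quantile normalisation (0.01 and 0.02). Complexes II and III kept a median below 0 under all 21 alternatives run, and complex I under all but the bright arrays alone. The fits without the dim filter, without a trend and with either block cannot move these medians, so they say nothing about their stability.

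**Figure D5:**
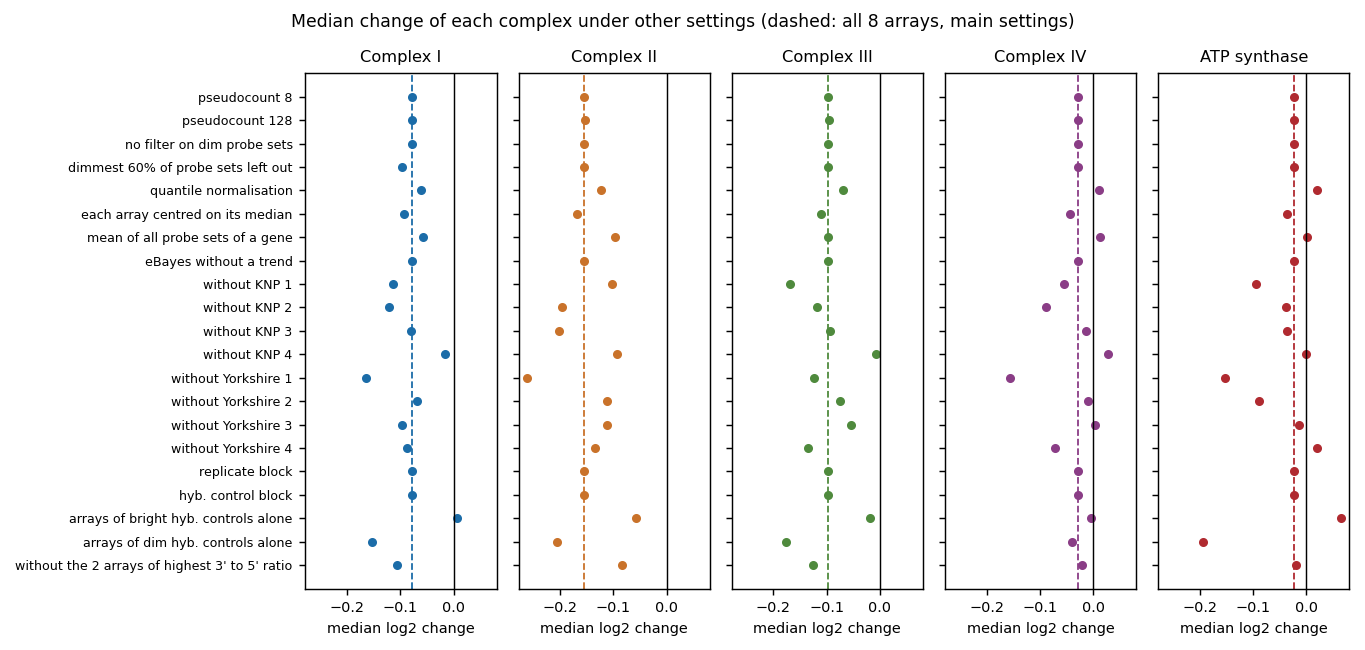
Median log2 change (horizontal axis, KNP minus Yorkshire) of each complex under 21 other settings or array sets, 1 point each, with the main value as a dashed line and 0 as a solid line. Medians of complexes IV and V fall on both sides of 0, and those of complexes II and III stay below it.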

How the data were processed

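Back muscle RNA was measured on 8 Affymetrix porcine arrays of 1 colour. The deposited values are intensity values per probe set, scaled per array by the authors, and the submitters' processing notes name GCOS 1.3. No label or header names the summarisation, the scaling target or a filter. Gene names came from GEO's platform annotation. All 64 members matched the Sscrofa11.1 gene table by gene number, and no sequences were used. From these values log2(signal + 32) was computed. Control probe sets and the dimmest 40% of the others were left out, which left 14399 probe sets, 5331 of them representing a gene. The model was breed alone, with lmFit and a trended eBayes (limma 3.58.1 under R 4.3.3), and p-values were adjusted by Benjamini-Hochberg over all probe sets. The fit was tested on simulated data. Figures were drawn with matplotlib 3.10.9. Precision is limited by having 4 arrays per breed, and the median SE among members was 0.19. A fold on this scale understates changes of dim probe sets. Deviations in a plot are from a gene's mean over all arrays.

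Members named with values on every array were the 4 of smallest p in complexes I, IV and V, both of complex III, all of complex II, CYCS, and from a list of subunits with isoforms COX5B, COX6C, COX6A1, COX7A1, COX7A2 and the c ring genes. Of related lists, the 2 genes of smallest p were named. SCO2, TFAM, SLC25A4, NDUFS1 and ATP5I were added after their values were seen. Members, lists and rules were chosen with earlier results of these data known. Alternatives were pseudocounts, filters, normalisation, probe set averaging, the trend, each array left out, blocks and array subsets. The labels do not say that replicate numbers pair the arrays, so the main fit has no block. Same-numbered arrays had like hybridisation controls, and their deviations correlated at -0.04, 0.31, 0.10 and 0.05. These values do not settle whether the arrays are paired.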

Additional observations from a re-analysis of the deposited data

Results flagged for a closer look

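In 3 members the highest or lowest of 4 arrays of a breed lay far from the others, by the ratio of its gap to the range of the group (Dixon's ratio). COX5B had a signal of 10972 in Yorkshire 1 against 15286 to 15774 on the other Yorkshire arrays. NDUFC1 was at 7979 in Yorkshire 4 against 11800.1 to 12121, and SDHC was at 4017 in Yorkshire 2 against 1653 to 1921. Of the 48 groups looked at among the members named by the rule 3 were so marked, and 8 groups over all 64 members were. Chance marks about 5% of groups.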

How the results depend on the processing

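No member passed under any of the 21 alternatives, and the count of members below 0 ran from 32 (bright arrays alone) to 53 (dim arrays alone). One gene that is no member, NR4A3, passed with the replicate block, which gives a count of 1 where it was 0. The block changed no member's call, and the smallest adjusted p among members was then 0.992. Same-numbered arrays had like hybridisation controls but did not all deviate together over genes, and 4 of 8 arrays correlated best with their own number. Leaving out the assembly factors, ATP5S and NDUFA4, an alternative added after the data were seen, gave medians of -0.10 over the members and over complex I and moved that of the ATP synthase to -0.08.

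Some values near 0 changed sign, and the cause was not tested. With quantile normalisation the medians of complexes IV and V were 0.011 and 0.019 and COX5B was at 0.052. With the mean of all probe sets they were 0.012 and 0.00049, and COX7C was at 0.021. With arrays centred on their median COX6C was at -0.0019. In the bright arrays alone the medians of complexes I and V were 0.0067 and 0.064, ATP5G1 was at 0.077, COX5B at 0.11, COX6C at -0.0034 and SDHA at 0.061. In the dim arrays alone COX7A1 was at -0.083 and COX8H at -0.0094.

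With 1 array left out in turn, the median of complex IV ranged from -0.16 to 0.027 and that of complex V from -0.15 to 0.020. Among genes the ranges that crossed 0 were -0.071 to 0.098 for COX6C, -0.16 to 0.027 for COX5B, -0.34 to 0.032 for CYCS, -0.20 to 0.0064 for UQCR10, -0.024 to 0.34 for ATP5G2, -0.35 to 0.00072 for COX7C and -0.018 to 0.088 for SDHD. With 4 arrays per breed, differences much under 0.42 log2 units lie within the typical unadjusted interval of a member. The calls used p-values adjusted over all probe sets, where the smallest limma p of any gene, 1.95e-05, had an adjusted p of 0.281. Differences larger than 0.42 could thus also go uncalled.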
